A study of Mus musculus with 8 samples.

Results

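Pachytene spermatocytes were compared with type B spermatogonia of the mouse over all autosomal genes that the arrays measured. Type B spermatogonia are the last generation of germ cells that divide by mitosis before meiosis. Pachytene spermatocytes stand in the long prophase of the first meiotic division, when the paired homologous chromosomes complete recombination and the sex chromosomes are silenced. The study profiled 4 germ cell stages with 2 arrays each. The comparison took the 2 arrays titled pachytene spermatocytes and the 2 titled type B spermatogonia, 4 of 8 arrays, while the 2 type A spermatogonia and 2 round spermatid arrays entered the estimate of the spread and the choice of the probe sets and genes tested. Per the labels, all groups were total RNA of BL/6-129 mice, a mixed background, with no treatment or engineered allele named. Per the design text, each array came from its own germ cell preparation. The age of the mice, the way the cells were purified and the purity reached are not stated in the labels, so how well each preparation stands for its stage is not known from them.

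While recombination is completed, spermatocytes already transcribe many genes for the flagellum, the acrosome and the metabolism of sperm, and several housekeeping proteins are exchanged for relatives made only in the testis. They also hold large amounts of stored messenger RNA, which RNA-binding proteins keep from being translated until the spermatid stage. Spermatogonia, in contrast, divide by mitosis. Growth factor and retinoic acid signals of the tubule act on them.

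Each value in the text is a signal, the linear array intensity of a gene, or a log2 change, the mean of log2(signal + 16) in pachytene cells minus that in type B cells. The deposited signals had been scaled so that the mean without the highest and lowest 2% of probe sets was 125.0 on all 8 arrays. Each change is therefore relative to the rest of the array, and a shift in the total amount of RNA in a cell would be hidden. Fewer cells of a type and less RNA per cell cannot be told apart either. The sign ± gives the standard error of the limma fit with n = 2 arrays against 2. A gene is said to rise or fall when its Benjamini-Hochberg adjusted p, over 14145 genes tested, was under 0.05. A gene was tested when its signal was above the array median on at least 2 of the 8 arrays.

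The type B arrays were not alike. Across genes, which are not independent replicates, their log2 signals correlated at r = 0.886, against 0.980 for the pachytene pair. Type B replicate 1 correlated at 0.507 and 0.520 with the pachytene arrays and replicate 2 at 0.703 and 0.725. With the type A arrays, replicate 1 correlated at 0.957 and 0.975 and replicate 2 at 0.871 and 0.868. Replicate 1 was thus closer to the type A arrays than to its own pair. Over the 2451 autosomal genes that rose at least 2-fold, replicate 2 was above replicate 1 for 2102 and below it for 348. In linear signal, its median position was 16.1% of the way from replicate 1 to the pachytene mean, with quartiles of 6.5% and 24.6%. Over the 3123 that fell at least 2-fold, replicate 2 was below replicate 1 for 2087 and above it for 1036. The median position was 18.4%, with quartiles of -10.8% and 38.8%. These shares are not on the log2 scale of the changes. The median signals of the rising genes were 72.6 and 162.6 in type B against 515.8 and 527.0 in pachytene cells. Results that rest on type B replicate 2 are therefore given with and without it. Where leaving out 1 type B array moved the change of a called gene by more than 1.5 times, square brackets hold the change without type B replicate 1 and then without replicate 2. The words without either array mean that each was left out in turn.

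The labels were checked against 5 marker genes. Piwil1, a partner of pachytene piRNAs, had signals of 48.3 and 251.9 in type B and 1791.5 and 1620.7 in pachytene cells (3.71 ± 0.57, limma adjusted p = 0.000988). Spo11, which cuts DNA to start meiotic recombination, read 110.9 and 138.9 in type B against 906.9 and 854.3 (2.68 ± 0.21). Both were higher on either pachytene array than on either type B array, and type B replicate 2 was the higher of its pair. Kit, the receptor of differentiating spermatogonia, fell from 758.8 and 461.9 to 63.5 and 64.8 (-2.92 ± 0.25). Stra8, the retinoic acid target needed for meiotic entry, fell from 1219.4 and 747.8 to 61.3 and 89.3 (-3.43 ± 0.28). Hspa2, the heat shock protein of spermatocytes, rose from 425.0 and 1809.1 to 3696.0 and 3949.8 (2.10 ± 0.55 [1.07, 3.12]), and its call was lost without pachytene replicate 2. All 5 markers moved in the direction that the labels imply for pachytene cells against spermatogonia. In type A cells Kit read 717.1 and 853.1 and Stra8 675.4 and 850.1, overlapping the type B values. These markers therefore do not set type B apart from type A.

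Markers of other testis cells also differed between the groups. The summed signal of 6 stromal markers was 13560.9 and 14341.2 in type B and 686.0 and 933.6 in pachytene cells, and 6 of 6 fell. Col1a1 read 2.1 and 5.4 in the pachytene arrays, at the bottom of the scale. Sums of 8 Sertoli markers were 4281.1 and 5233.9 against 2911.4 and 3782.8, with 6 of 8 lower. The macrophage and blood list, with 8 genes of which 5 were tested, summed to 828.6 and 814.2 against 220.9 and 211.1, and 5 of 5 fell. Of the 5 Leydig markers 4 were tested and 1 fell, and of the endothelial markers 1 of 4 fell. The 6 round spermatid markers summed to 126.1 and 1278.5 in type B, 1796.9 and 2179.3 in pachytene cells and 20298.3 and 24681.5 in spermatids. A control on the array for the end of 18S ribosomal RNA moved with the groups too, at 3450.5 and 2809.8 in type B against 276.3 and 184.9. The control for the start of this RNA differed within type B, at 325.4 and 1881.1, against 162.4 and 120.7 in pachytene cells. The part of these differences in the results was not tested.

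Of all 14145 genes tested, 57.7% were called in either direction. Over the autosomes, 3550 of 13579 genes rose (26.1%) and 4226 fell (31.1%). At least a 2-fold change was found for 2451 rising (18%) and 3123 falling genes (23%). These 26.1% and 31.1% are the background against which each family is read. The 2 arrays of one group lay wholly above the 2 of the other for 38.2% of genes in the rising and 41.8% in the falling direction. The main scaling gave 45.7% of calls as rises. Centring the arrays on their 75th percentile gave 4682 rises and 3350 falls, 58.3% rises, and centring on the median gave 59.5%. These centrings moved the median change of all autosomal genes from -0.04 to 0.22 and 0.25. List medians below are therefore read against the all-gene median. The split between rises and falls is tied to the scaling. Leaving out 1 pachytene array lowered the shares of rising and falling genes to 18.5% and 24.6% (replicate 1) or 19.1% and 24.6% (replicate 2).

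**Figure D1:**
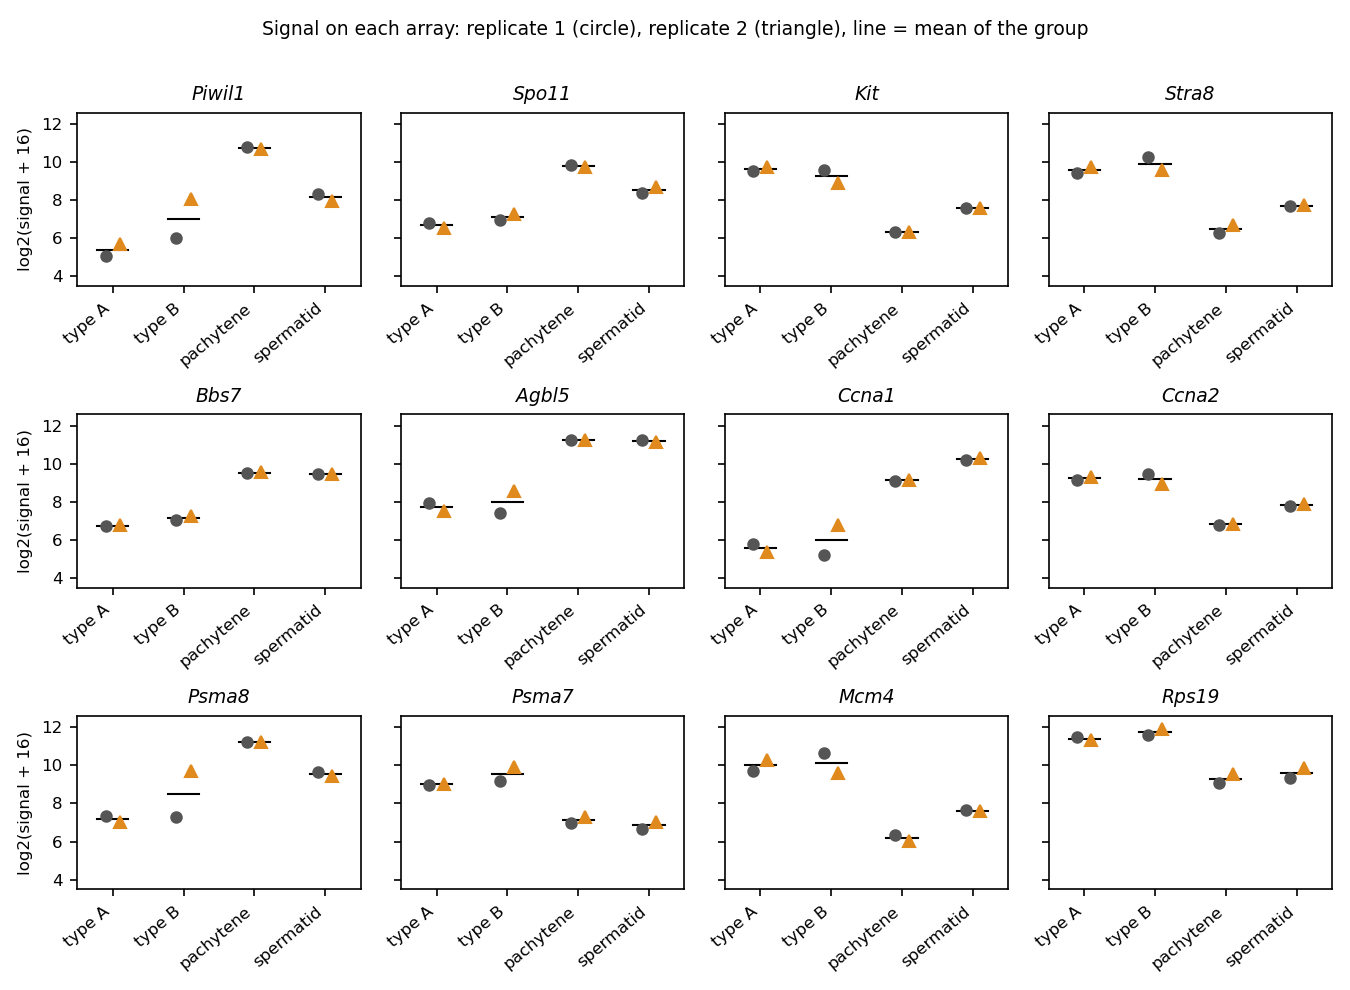
Level of 12 genes on each of the 8 arrays as log2(signal + 16), with circles for replicate 1, triangles for replicate 2 and a line for the mean of the pair at each stage. Piwil1, Spo11, Bbs7, Agbl5, Ccna1 and Psma8 are higher in pachytene than in type B cells, Kit, Stra8, Ccna2, Psma7, Mcm4 and Rps19 are lower, and for Piwil1 type B replicate 2 (251.9 in signal) sits above replicate 1 (48.3).

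Among the 78 lists, genes of intraflagellar transport rose in the largest share, also with each of the 4 arrays left out in turn and under each of 3 other scalings. Of 33 intraflagellar transport and BBSome genes, which carry cargo along the growing axoneme, 33 passed the filter, 30 rose and 0 fell. At an unadjusted p under 0.05 limma also gave 30 and 0. The list median was 1.54, against -0.04 for all autosomal genes. The 2 groups of arrays did not overlap for these 30 genes, which adds no support because the genes were taken by their calls. Of all autosomal genes, 38.2% had both pachytene arrays above both type B arrays. Without type B replicate 1 27 rose, and without replicate 2 29. Of 163 symbol stems with at least 10 tested genes, Ift was one whose 14 of 14 tested genes rose.

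Bbs7, a subunit of the BBSome, which sorts membrane proteins at the cilium base, had signals of 116.9 and 135.5 in type B against 705.7 and 742.4 in pachytene cells (2.38 ± 0.18, limma adjusted p = 8.93e-05). It stayed at 685.3 and 692.3 in round spermatids. The 6 subunits of the A complex, which returns cargo to the base, all rose, from 1.6 for Ift43 to 2.45 ± 0.28 for Wdr35. Wdr35 read 137.9 and 255.0 against 1146.2 and 1053.9, with the lower value of each pair still apart from the other group. Among B complex genes, which drive outward transport, Ift172 rose from 127.9 and 431.5 to 1485.5 and 1488.3 (2.57 ± 0.44). Ift88 read 213.8 and 218.0 against 641.6 and 537.2 (1.38 ± 0.19). The near-identical copies Ttc30a1 and Ttc30a2, whose probes may share transcripts, showed different spermatid levels. Ttc30a1 read 88.8 and 253.1 in type B, 1103.8 and 1000.6 in pachytene cells, and 191.1 and 157.4 in spermatids (2.67 ± 0.40). Ttc30a2 had 13.5 and 855.7 in type B (4.32 ± 1.23 [1.88, 6.76]) and lost its call without either pachytene array. Hspb11 (-0.26 ± 0.21), Bbs12 (-0.36 ± 0.28) and Bbip1 (-0.32 ± 0.26) did not pass. Bbip1 was called lower after quantile normalization, and its sign turned when all its probe sets were averaged (0.81).

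**Figure D2:**
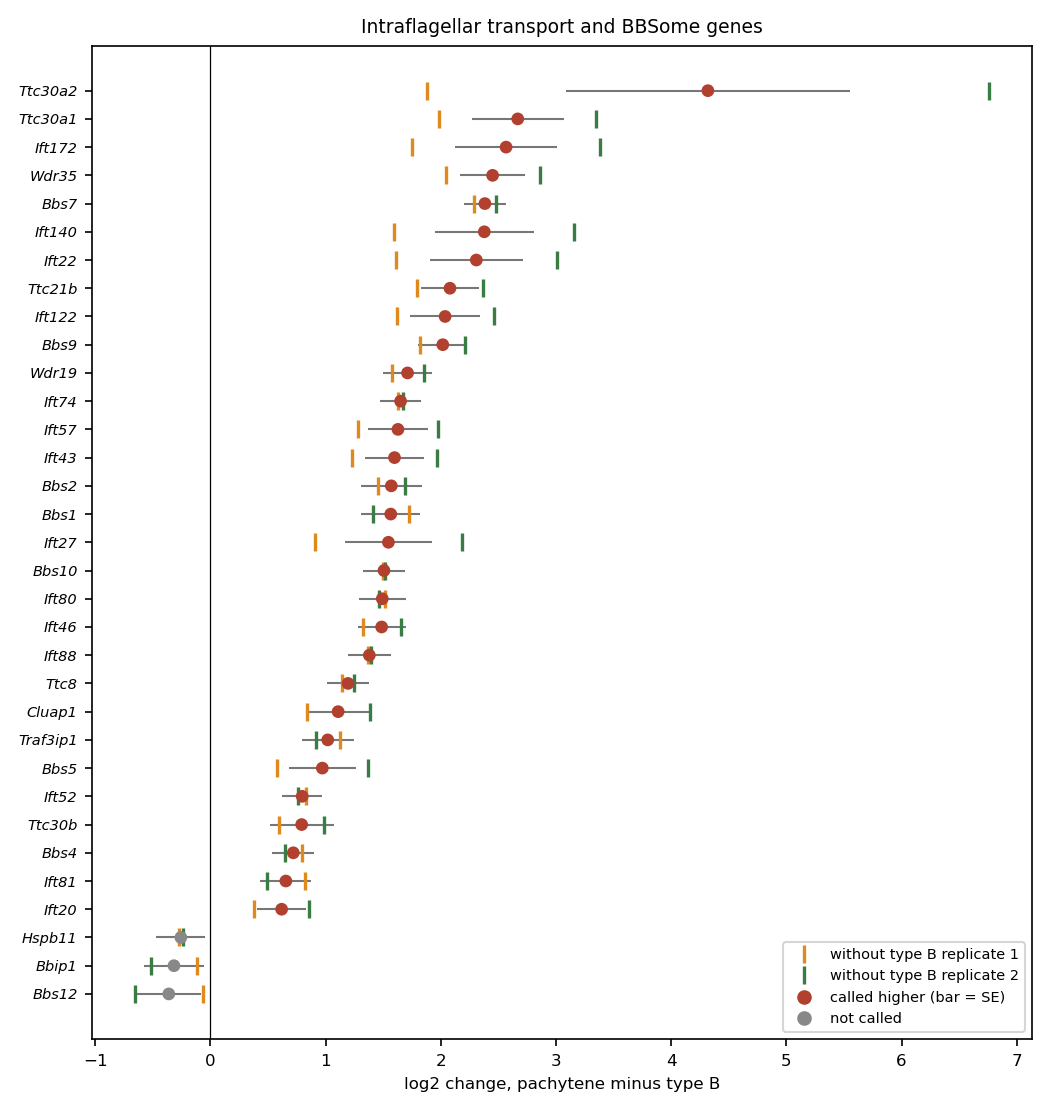
Log2 change, pachytene minus type B, of the 33 intraflagellar transport and BBSome genes with its standard error, and ticks for the change without type B replicate 1 or 2. For 30 of 33 the change passed the test, and the 3 that did not pass (Hspb11, Bbs12, Bbip1) lie at or below -0.26.

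Counts of motor and axoneme genes differed between families. Of 25 tested dynein subunits 15 rose and 2 fell, with a median of 1.24. Axonemal members were among the largest rises, such as Dnah12, a heavy chain, from 27.1 and 132.2 to 816.8 and 712.8 (3.29 ± 0.54, limma adjusted p = 0.00128). Dnaic1, an outer arm intermediate chain, rose by 3.85 ± 0.69 and Dnali1, an inner arm light chain, by 3.85 ± 0.80 [2.43, 5.27]. Both dynein genes that fell, Dynlrb1 (-2.79 ± 0.25) and Dynll2 (-1.78 ± 0.21), encode light chains. Dynll2 read 1198.3 and 873.3 in type B, 297.4 and 276.8 in pachytene cells, and 3566.1 and 3862.5 in spermatids. Dynlrb2, the paralog of Dynlrb1, rose (3.55 ± 0.76 [2.07, 5.02]), from 32.9 and 361.0 to 1470.2 and 1681.3, while Dynlrb1 went from 759.8 and 500.2 to 65.3 and 87.3. Kinesins gave 7 rises and 8 falls among 35. Kif9, a flagellar kinesin, rose (3.09 ± 0.56 [2.04, 4.15]), while Kif5b, the conventional kinesin heavy chain, fell (-1.72 ± 0.19). Only 4 kinesins rose without pachytene replicate 1, and 5 fell without type B replicate 1 or either pachytene array.

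Enzymes that modify tubulin and the tubulins gave different counts. Of 20 tubulin ligases and carboxypeptidases of the Ttll and Agbl type, 12 rose and 1 fell (median 1.85). Agbl5, which removes glutamates from tubulin tails, had 157.5 and 371.4 in type B and 2393.4 and 2392.8 in pachytene cells (3.22 ± 0.35, limma adjusted p = 0.000259). Ttll6, a polyglutamylase, rose by 3.25 ± 0.63 [2.10, 4.40], and Ttll12 fell (-1.20 ± 0.26). Among 15 tubulins 1 rose and 7 fell. The riser was Tubd1, delta-tubulin of centrioles (2.06 ± 0.31). Tubb2a fell from 329.1 and 377.0 to 22.5 and 19.8 and stood at 230.8 and 211.9 in round spermatids (-3.31 ± 0.29), so the pachytene arrays were the lowest of the 4 stages. Tubb5 (-2.18 ± 0.22) and Tuba1a (-1.93 ± 0.25) fell too. With the 75th percentile or median centring 4 tubulins rose, and 3 after quantile normalization, with 7 falls still under the first.

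Of 33 Cep genes, whose products sit at centrosomes and basal bodies, 17 rose and 3 fell (median 0.65). Cep128 (3.05 ± 0.53), Cep126 (2.83 ± 0.29) and Cep72 (2.67 ± 0.38) led. Falls numbered 1 without type B replicate 1, and 0 without pachytene replicate 2. Among 22 actin-related, Arp2/3 and capping genes 11 rose and 3 fell, but 6 rose without type B replicate 1 and 7 without either pachytene array. Actl7b, an actin-like protein of sperm, rose by 2.51 ± 0.62 [1.34, 3.68], and Actr3, a core subunit of the Arp2/3 complex, fell (-1.64 ± 0.20). Several families defined only by a protein repeat also rose more often than the 26.1% of all genes. They were Ccdc with 53 rises and 17 falls of 103, Lrrc with 21 and 9 of 42, Ttc with 19 and 7 of 36 and Wdr with 24 and 18 of 55. The Wdr genes were mixed, with 32.7% falling and a median of 0.19. In the Ccdc family, Ccdc39, an organiser of axonemal inner arms, rose by 3.75 ± 0.72 [2.47, 5.04]. Lrrc6, needed to assemble dynein arms, rose by 3.68 ± 0.69 [2.36, 5.0]. Of 173 Tmem genes 46 rose and 57 fell, near the background. Of 62 Tex, Spata, Spag and Tsga genes, named for their expression in testis or sperm, 29 rose and 3 fell. Without either pachytene array 19 rose, and without replicate 2 of them 1 fell. The exception of largest size was Tex15, which acts in meiotic repair and transposon silencing and fell from 2452.5 and 710.4 to 151.8 and 116.3 (-3.17 ± 0.49).

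**Figure D3:**
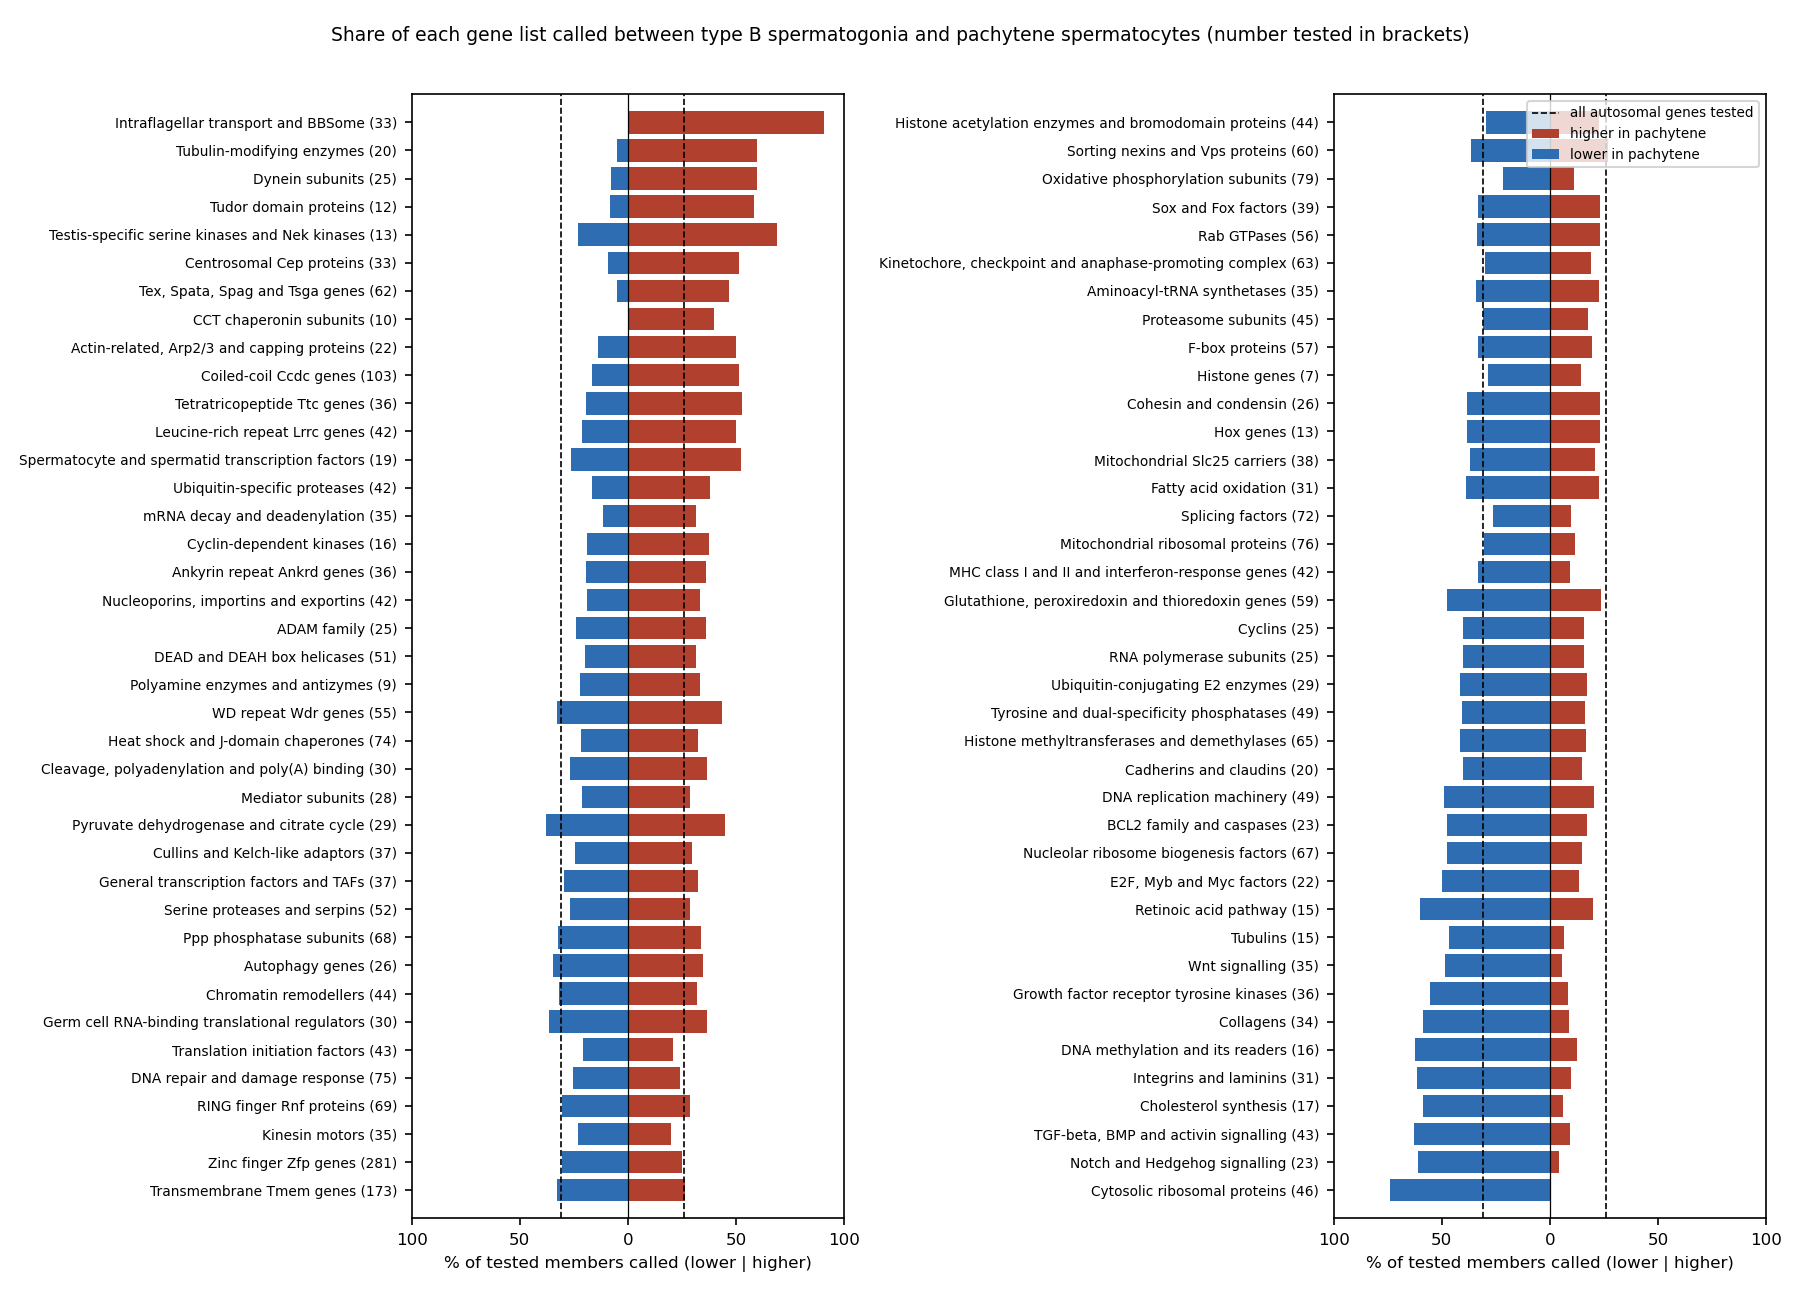
Percent of the tested autosomal members of each of 78 gene lists that rose (right) and fell (left) at a limma adjusted p under 0.05, with dashed lines at the shares of all autosomal genes, 26.1% and 31.1%. Intraflagellar transport and BBSome (90.9% rising) and cytosolic ribosomal proteins (73.9% falling) lie farthest from the dashed lines in each direction.

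Transcription factors also changed in both directions. In a list of 19 factors known from spermatocytes and spermatids 10 rose and 5 fell (median 1.46). Rfx2, a regulator of ciliary genes, read 52.9 and 230.8 in type B against 1087.2 and 1249.5 (3.18 ± 0.51, limma adjusted p = 0.00115). Type B replicate 2 was again the higher of its pair, and the groups did not overlap. Rfx8 (2.83 ± 0.55 [1.82, 3.84]) and Rfx4 (3.58 ± 0.81 [2.02, 5.13]) rose, while the family member Rfx7 fell (-1.09 ± 0.23). Mybl1, the Myb factor that drives pachytene piRNA genes, rose from 236.1 and 239.3 to 1166.1 and 683.8 and was at 306.5 and 246.4 in spermatids (1.84 ± 0.27). Ovol2, a zinc finger repressor, rose by 2.29 ± 0.44. Without pachytene replicate 2, 3 factors of this list fell.

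The proliferative E2F, Myb and Myc list gave 3 rises and 11 falls among 22, with 1 rise without pachytene replicate 2. E2f1 (-1.91 ± 0.26) and E2f3 (-1.79 ± 0.21), activators of replication genes, fell. Myc, from 134.3 and 148.6 to 2.3 and 11.0, fell by 2.82 on the log2 scale. E2f8, a repressor of the same targets, rose (1.12 ± 0.24). Of 281 Zfp genes 71 rose and 86 fell, shares close to those of all genes, and 47 rose without pachytene replicate 1. Within them, the RNA-binding proteins Zfp36 (-2.78 ± 0.33), Zfp36l1 (-3.42 ± 0.25) and Zfp36l2 (-2.40 ± 0.18), which speed the decay of messenger RNAs with AU-rich elements, all fell. Zfp541, a germ cell chromatin factor, rose (2.19 ± 0.29). Hox genes were mostly below the filter, 13 of 33 being tested, with 3 rises and 5 falls. Hoxa4 was the largest rise, from 4.9 and 139.6 to 972.1 and 1213.3 (4.27 ± 0.75 [2.82, 5.72]), and Hoxd9 fell (-2.18 ± 0.23). Of 39 Sox and Fox factors 9 rose and 13 fell, and 4 rose without pachytene replicate 1. Sox30, which activates spermatid genes, rose (1.65 ± 0.28), and Foxo3, a factor that restrains growth, fell (-2.17 ± 0.24).

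Promoters of the rising genes were searched for the binding motif of Myb factors, since Mybl1 rose. The 250 bases before the start site were taken from RefSeq (GRCm38.p6) for genes with 1 promoter entry, and 4 promoters are printed because the text gives results for their genes. These 4 were picked with their values known, and all 4 hold a match. They are examples and do not show how common a match is. Letters in capitals mark the motif, searched on both strands as CAACGG or with T as its next to last base as CAACTG, and the same with T as the first base, TAACGG in one spelling and TAACTG in the other, so a match on the other strand reads in reverse complement.
Piwil1, chr5:128735996-128736245, plus strand: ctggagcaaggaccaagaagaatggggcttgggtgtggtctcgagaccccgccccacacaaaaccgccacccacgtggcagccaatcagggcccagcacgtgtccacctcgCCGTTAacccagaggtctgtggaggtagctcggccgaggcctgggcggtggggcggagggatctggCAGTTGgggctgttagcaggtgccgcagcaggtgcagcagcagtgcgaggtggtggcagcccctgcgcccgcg
Rfx2, chr17:56831009-56831258, minus strand: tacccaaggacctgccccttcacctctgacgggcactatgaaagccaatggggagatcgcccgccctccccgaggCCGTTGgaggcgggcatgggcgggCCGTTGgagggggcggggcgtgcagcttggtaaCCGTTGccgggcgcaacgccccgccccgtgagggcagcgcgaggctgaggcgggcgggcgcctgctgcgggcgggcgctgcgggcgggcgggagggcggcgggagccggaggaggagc
Tdrd5, chr1:156303349-156303598, minus strand: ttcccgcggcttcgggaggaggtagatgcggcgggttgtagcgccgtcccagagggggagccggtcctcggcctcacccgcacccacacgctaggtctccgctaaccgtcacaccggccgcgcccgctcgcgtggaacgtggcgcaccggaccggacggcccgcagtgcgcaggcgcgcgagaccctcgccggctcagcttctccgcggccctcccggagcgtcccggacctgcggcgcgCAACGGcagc
Ttc30a1, chr2:75981968-75982217, minus strand: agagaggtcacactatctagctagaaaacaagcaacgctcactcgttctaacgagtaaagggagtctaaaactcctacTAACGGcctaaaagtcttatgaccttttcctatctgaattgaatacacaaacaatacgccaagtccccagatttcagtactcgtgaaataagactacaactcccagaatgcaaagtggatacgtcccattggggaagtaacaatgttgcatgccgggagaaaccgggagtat
Rfx2 had 3 matches, Piwil1 2, and Tdrd5 and Ttc30a1 1 each. A match was present in 27.2% of the 1589 promoters of genes that rose at least 2-fold, in 18% of 1991 that fell at least 2-fold and in 21.6% of 3752 of genes not called. Over the 8762 promoters of all autosomal genes tested the share was 21.8%, and over all 22862 promoters it was 23.7%. The rising and falling sets differed in base composition, with a median GC content of 57.6% and 62.4%. Among promoters at or below the median GC content the shares were 31.3%, 24.2% and 25.6%, and above it 22.1%, 14% and 16.8%. The order was thus the same at both levels of GC content. In percentage points, the 4 other motifs searched differed less between the rising and falling sets. CCAAT was in 37.5%, 37.1% and 36.1%, the cAMP response element TGACGTCA in 2.9%, 3.1% and 2.6%, and the E2F motif (TTTGGCGC or TTTCGCGC) in 1.1%, 1.1% and 1.4%. An X-box core of Rfx factors, GTTGCCATG, was in 0.8%, 0.4% and 0.5%. The rising and falling shares are 12 of 1589 and 8 of 1991 promoters, a larger ratio than that of the Myb motif but from few matches. CCAAT and the others were searched on both strands, with overlaps between motifs not removed. A match is only a sequence description.

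Chromatin genes changed in both directions, with single strong members. Of 65 histone methyltransferases and demethylases 11 rose and 27 fell. Kdm4d, a histone demethylase abundant in testis, rose from 64.7 and 210.4 to 1209.5 and 1161.0 (3.15 ± 0.42, limma adjusted p = 0.000522). Kdm3a, another demethylase of repressive marks with a known role in spermatids, rose by 1.73 ± 0.21. Methyltransferases that place such marks fell, Ehmt1 (-2.35 ± 0.21) and Suv39h2 (-2.25 ± 0.25). Without either pachytene array 6 rose. Among 44 acetylation enzymes and bromodomain proteins, 10 rose and 13 fell, including Kat5 (2.02 ± 0.25), a MYST acetyltransferase, and Hat1 (-2.29 ± 0.27), which acetylates new histones. The 44 chromatin remodellers gave 14 rises and 14 falls, with Ino80c (2.87 ± 0.35) and Hells (-2.69 ± 0.31) at the ends.

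DNA methylation genes mostly fell, 10 of 16 with 2 rises (median -0.88). Dnmt3a, a de novo methyltransferase, went from 311.9 and 436.6 to 41.7 and 45.0 (-2.70 ± 0.23, limma adjusted p = 0.000116) and was at 48.0 and 40.3 in spermatids. Dnmt3b fell too (-2.46 ± 0.34). Mbd3, a subunit of the NuRD complex, rose (1.39 ± 0.27). Without pachytene replicate 2, 6 fell, without replicate 1, 1 rose, and with the 75th percentile centring 5 genes rose. In basal transcription, 12 of 37 general factors and TAFs rose and 11 fell, 6 without pachytene replicate 2. Taf7l2 (2.46 ± 0.38) rose while its relative Taf7 fell (-1.40 ± 0.19). RNA polymerase subunits gave 4 rises and 10 falls of 25, among them Polr2h (-2.18 ± 0.18), a subunit common to all 3 polymerases, and 5 fell without pachytene replicate 1. Mediator, the coactivator complex, gave 8 and 6 of 28, with 5 rises without pachytene replicate 1. Its list held Med16 (1.92 ± 0.20) and Med21 (-2.22 ± 0.41).

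Cell cycle genes changed in both directions. Of 25 cyclins 4 rose and 10 fell. Ccna1, the meiotic A cyclin, rose from 21.0 and 96.2 to 524.5 and 561.6 (3.12 ± 0.45, limma adjusted p = 0.000712), and it stood at 1139.1 and 1227.3 in spermatids. Ccna2, the A cyclin of mitotic cells, fell from 698.5 and 476.8 to 95.0 and 100 (-2.39 ± 0.22). Neither gene had overlapping groups. The D cyclins Ccnd1 (-2.61 ± 0.28) and Ccnd2 (-2.91 ± 0.20), which start the cycle, fell with their kinase Cdk4 (-1.35 ± 0.20). Ccnb2 (1.33 ± 0.21), a cyclin of the division phase, rose. Of 16 Cdk genes 6 rose and 3 fell, and 3 rose without either pachytene array. Cdk20, which acts in ciliary signalling, was the largest (2.71 ± 0.42).

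Replication genes fell in 24 of 49 cases and rose in 10 (median -0.62). Of the helicase subunits Mcm2 to Mcm7, 5 fell. Mcm4 went from 1586.6 and 771.1 to 65.3 and 48.7 (-3.95 ± 0.35, limma adjusted p = 0.000137). Mcm2 (-2.70 ± 0.35), Mcm3 (-2.54) and Mcm6 (-2.0) fell with it, while Mcm7 read 0.01. The thymidine kinase gene Tk1 fell from 226.5 and 124.1 to 2.7 and 8.7 (-3.10 ± 0.37). Some subunits rose, such as Rfc2 of the clamp loader (1.04 ± 0.20) and Orc5 of the origin complex (1.07 ± 0.22), and 4 genes of the list rose without pachytene replicate 2. In the kinetochore, checkpoint and anaphase-promoting list 12 of 63 rose and 19 fell, with 12 falls without either pachytene array and 22 rises under the 75th percentile centring. Cenpa, the histone of centromeres, went from 549.4 and 541.3 to 32.5 and 26 (-3.64 ± 0.18, limma adjusted p = 4.56e-05). Aurka, a spindle pole kinase, rose from 315.9 and 545.6 to 1747.2 and 2105.8 (2.16 ± 0.28). Cdc16 (-2.22 ± 0.26) and Cdc23 (-2.23 ± 0.19), subunits of the anaphase-promoting complex, fell.

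Chromosome structure and repair were mixed. Of 26 cohesin and condensin genes 6 rose and 10 fell. Stag3, the cohesin subunit of meiotic axes, rose (1.18 ± 0.21), whereas the meiotic kleisin Rec8 (-2.02 ± 0.33) and the general kleisin Rad21 (-2.31 ± 0.25) both fell. Rec8 read 111.6 and 86.9 in type B and 24.8 and 3.6 in pachytene cells, low signals that leave its change uncertain in size. Of 75 repair genes 18 rose and 19 fell, close to background, and 10 rose without pachytene replicate 1. Mlh3 (1.25 ± 0.18), which helps to resolve crossovers, and Fancg of the Fanconi pathway (2.14 ± 0.21) rose. Atm, the kinase that senses double-strand breaks, fell from 724.9 and 450.5 to 77.7 and 54 (-2.86 ± 0.27).

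Among genes of germ granules and messenger RNA regulation, the lists differed. Of 12 Tudor domain genes, whose products scaffold piRNA granules, 7 rose and 1 fell (median 0.98). Tdrd5 peaked at the pachytene stage, with 177.7 and 243.8 in type B, 957.6 and 866.8 in pachytene cells and 138.9 and 138.7 in spermatids (2.05 ± 0.21, limma adjusted p = 0.000211). Tdrd1 had the same course, with 70.9 and 76.1, then 371.2 and 442.5, then 80.8 and 68.5 (2.24 ± 0.36). Tdrd12 rose by 1.48 ± 0.27. Of the 51 DEAD and DEAH box helicases 16 rose and 10 fell, but 9 rose without type B replicate 2 and 7 and 9 without pachytene replicates 1 and 2, and 6 fell without pachytene replicate 2. Ddx25, a helicase of chromatoid bodies, went from 396.4 and 884.0 to 2794.6 and 3068.1 (2.27 ± 0.35).

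Of 30 germ cell RNA-binding regulators of translation 11 rose and 11 fell, 7 rising without pachytene replicate 1. Boll, the DAZ family member of meiosis, rose from 208.7 and 227.2 to 1302.4 and 1062.1 (2.35 ± 0.25, limma adjusted p = 0.000218). Its relative Dazl fell from 3338.8 and 1707.2 to 878.8 and 631.9 (-1.66 ± 0.32). Cpeb2 rose (1.55 ± 0.24) and Cpeb1 fell (-2.25 ± 0.39), both binders of cytoplasmic polyadenylation elements. Lin28a, a marker of spermatogonia, fell (-2.53 ± 0.31). Ybx2, which packages stored messages, rose by 3.21 ± 0.77 [1.77, 4.65]. Of 30 cleavage, polyadenylation and poly(A)-binding genes 11 rose and 8 fell, with 5 and 6 rises without pachytene replicates 1 and 2 and 5 falls without type B replicate 1. Papolb, the testis poly(A) polymerase, rose by 3.27 ± 0.72 [1.87, 4.68]. Paip2, an inhibitor of poly(A)-binding protein, fell (-2.25 ± 0.18). Splicing factors rose in 7 of 72 cases and fell in 19, with 4 rises without type B replicate 2, 2 and 3 without pachytene replicates 1 and 2, and 14 under the 75th percentile centring. Ptbp2, the germ cell and neuronal relative of Ptbp1, rose (1.58 ± 0.20), and Hnrnpa1 fell (-1.56 ± 0.24). In messenger RNA decay 11 of 35 genes rose and 4 fell, with 7 rises without pachytene replicate 1 and 2 falls without type B replicate 1 or pachytene replicate 2. Smg9 of nonsense-mediated decay rose (2.19 ± 0.27), and Cnot6l, a deadenylase, fell (-1.62 ± 0.19).

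Most genes for the proteins of cytosolic ribosomes fell. Of 46 tested cytosolic ribosomal protein genes 34 fell and 0 rose, with a median of -1.04 and a range from -2.47 to 0.69. At an unadjusted p under 0.05 limma gave 36 falls and 1 rise. Without type B replicate 2, 27 fell and 1 rose, and without pachytene replicate 1, 21 fell. Centring on the 75th percentile gave 26 falls and 1 rise. Rps19 read 3135.7 and 3864.1 in type B and 523.5 and 721.4 in pachytene cells (-2.47 ± 0.26, limma adjusted p = 0.00021), without overlap. Rps9 went from 2482.6 and 3956.4 to 709.4 and 883.7 (-1.96 ± 0.27). These are among the brightest genes of the array, and the median level of the list was 11.44 on the log2 scale in type A, 11.76 in type B, 10.59 in pachytene cells and 10.54 in spermatids. The 18S control, which lies on the RNA of the same ribosome, was lower on the same arrays, as given above. Controls for other RNAs were lower too. The Gapdh control at the end of its RNA read 2715.3 and 2266.6 in type B against 597.0 and 754.6. The beta-actin one read 4864.7 and 5502.4 against 3435.6 and 3703.9. The link of these controls to the ribosomal protein genes was not tested.

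Nucleolar factors that build ribosomes fell in 32 of 67 cases and rose in 10 (median -0.51), with 20 falls without type B replicate 1 or pachytene replicate 2 and 21 under the 75th percentile centring. Ncl, nucleolin, went from 3599.0 and 2504.1 to 439.6 and 401.5 (-2.79 ± 0.23, limma adjusted p = 0.000116). Fbl, the methyltransferase fibrillarin, fell by 1.82 on the log2 scale, and Nop9 rose (2.11 ± 0.24). Mitochondrial ribosomal proteins gave 9 rises and 23 falls among 76 and a median of -0.21. Leaving out pachytene replicate 1 gave 12 falls and pachytene replicate 2 gave 3 rises, and the 75th percentile centring 16 rises and 12 falls. Of 43 initiation factors 9 rose and 9 fell. Rises numbered 5 without type B replicate 2 or pachytene replicate 1, 2 without pachytene replicate 2, and 14 under the 75th percentile centring, while falls numbered 16 after quantile normalization. Eif4g3, the scaffold needed for male meiosis, rose from 395.7 and 563.3 to 1635.8 and 1448.2 (1.67 ± 0.29). Eif4ebp1, the repressor of cap-dependent initiation, fell from 640.3 and 588.3 to 51.5 and 46.7 (-3.28 ± 0.20), although its probe sets differed in sign. Of 35 tRNA synthetases 8 rose and 12 fell, with 5 and 4 rises without pachytene replicates 1 and 2. Fars2, a mitochondrial enzyme, rose (1.62 ± 0.25), and Tars, a cytosolic one, fell (-1.72 ± 0.24).

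**Figure D4:**
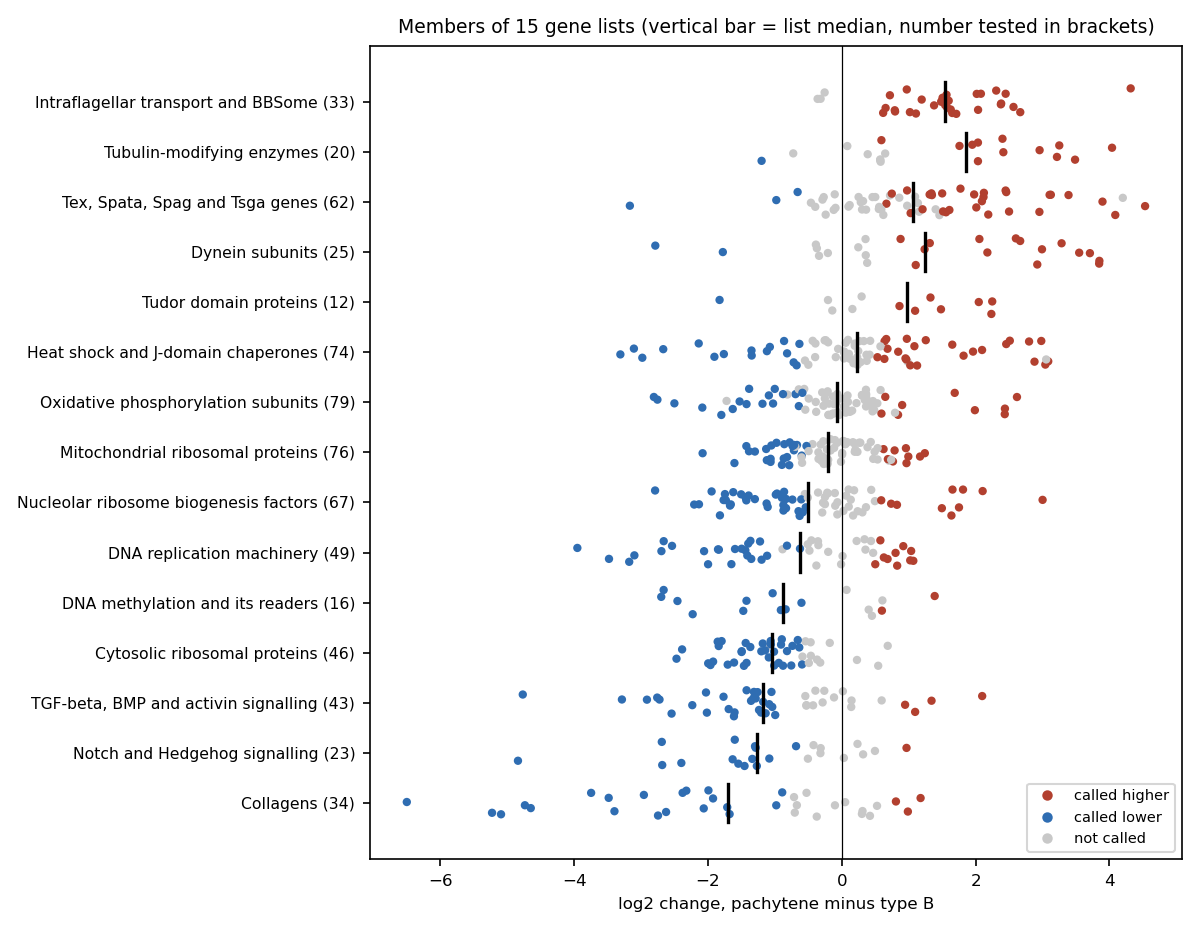
Log2 change of each tested member of 15 gene lists (points), pachytene minus type B, with the list median as a bar. Intraflagellar transport and BBSome members lie mostly above 0 (median 1.54), and cytosolic ribosomal proteins mostly below (median -1.04, lowest -2.47).

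Genes of protein turnover changed in both directions. Of 45 proteasome genes 8 rose and 14 fell, with 5 rises without pachytene replicate 2, and 9 falls without pachytene replicate 1 or under the 75th percentile centring. Psma8, the alpha subunit of the spermatoproteasome, rose from 141.9 and 811.7 to 2381.2 and 2354.0 and stood at 786.0 and 668.9 in spermatids (2.72 ± 0.63 [1.53, 3.92], limma adjusted p = 0.00659). Psma7, the subunit it replaces, fell from 562.0 and 957.1 to 107.8 and 140.7 (-2.43 ± 0.28). The immunoproteasome genes Psme1 (-3.06 ± 0.29) and Psmb10 (-1.93 ± 0.23) fell, and Psme4, the activator that acts on acetylated histones, rose (1.73 ± 0.25), a call lost when its probe sets, which differ in sign, were averaged. Ubiquitin-specific proteases rose in 16 of 42 cases and fell in 7. Usp2 went from 198.5 and 519.5 to 2008.9 and 1907.8 (2.54 ± 0.38). Among 57 F-box genes 11 rose and 19 fell, with 11 falls without pachytene replicate 2 and 19 rises and 10 falls under the 75th percentile centring. Fbxw5 rose from 116.0 and 369.0 to 2063.9 and 2164.2 (3.24 ± 0.44), and Fbxo5, which inhibits the anaphase-promoting complex, fell (-2.34 ± 0.33). E2 enzymes gave 5 rises and 12 falls of 29, with 2 rises without pachytene replicate 2 and 8 under the 75th percentile centring. Ube2s, the E2 that extends chains for the anaphase-promoting complex, rose (1.46 ± 0.23). RING finger genes gave 20 and 21 of 69, with 12 falls without pachytene replicate 2, and cullin and Kelch-like genes 11 and 9 of 37, with 6 rises without pachytene replicate 1. Rnf126 (2.23 ± 0.32) rose and Cul7 (-2.74 ± 0.20) fell.

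Chaperones changed in both directions, with a joint fall of the mitochondrial pair. Of 74 heat shock and J-domain genes 24 rose and 16 fell, with 13 and 14 rises without pachytene replicates 1 and 2. Dnajc27 rose from 117.8 and 156.2 to 1219.7 and 1147.2 (2.98 ± 0.22, limma adjusted p = 8.57e-05). The mitochondrial pair Hspe1 (-3.31 ± 0.21) and Hspd1 (-2.67 ± 0.25), which fold proteins in the matrix, fell together. Hspe1 read 1236.4 and 1396.4 against 127.2 and 109.6. Of the 10 CCT chaperonin genes, which fold actin and tubulin, 4 rose and 0 fell, and limma at an unadjusted p under 0.05 gave 5 and 0. Without type B replicate 1 or either pachytene array 2 rose, and 7 under the 75th percentile centring. Cct6b, the testis subunit, rose by 3.88 ± 0.81 [2.29, 5.47] and Cct7 by 0.90 ± 0.18.

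Energy metabolism genes changed in both directions, and related genes did not all do so in opposite ways. Of 79 oxidative phosphorylation genes 9 rose and 17 fell, and the counts turned to 17 rises and 11 falls without type B replicate 2. Pachytene replicate 1 left out gave 9 falls, replicate 2 left out 4 rises, and the 75th percentile centring 23 rises. Cox6b2, the testis form of a cytochrome oxidase subunit, rose from 320.0 and 1391.8 to 4038.0 and 4381.8 (2.62 ± 0.55 [1.58, 3.65], limma adjusted p = 0.00411). Its general relative Cox6b1 fell from 1645.9 and 1891.5 to 195.2 and 289.6 (-2.81 ± 0.24). Ldhc, the lactate dehydrogenase of testis, read 28.3 and 4895.9 in type B and 5975.0 and 6563.1 in pachytene cells (3.75 ± 1.70) and did not pass, while its general relative Ldha rose from 405.5 and 1616.7 to 3489.9 and 3862.0 (2.15 ± 0.55 [1.18, 3.13]), a call lost without pachytene replicate 2. Without type B replicate 2, which leaves 1 type B array, the change of Ldhc was 7.15. In pyruvate dehydrogenase and the citrate cycle 13 of 29 rose and 11 fell. Dlat, the transacetylase of pyruvate dehydrogenase, rose from 226.5 and 264.9 to 1024.3 and 1070.6 (2.03 ± 0.27), as did its testis subunit Pdha2 (2.84 ± 0.52 [1.87, 3.80]). Idh2 fell from 349.3 and 382.1 to 18.6 and 36.6 (-3.16 ± 0.32), and Fh1 (-2.62 ± 0.19) and Mdh2 (-2.42 ± 0.21) of the same cycle fell too.

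Of 38 mitochondrial carriers 8 rose and 14 fell, with 6 and 9 falls without pachytene replicates 1 and 2 and 7 under the 75th percentile centring. Slc25a20, the carnitine carrier, rose (1.31 ± 0.24), as did Cpt2, the carnitine transferase that follows it (1.69 ± 0.18). Fatty acid oxidation as a list gave 7 rises and 12 falls of 31, with Hadh (-2.20 ± 0.30) and Acadl (-2.09 ± 0.26), enzymes of the beta-oxidation spiral, lower. Cholesterol synthesis fell in 10 of 17 genes and rose in 1 (median -0.76). Hmgcs1 went from 1690.2 and 1763.9 to 454.5 and 518.8 (-1.80 ± 0.21), and Cyp51 fell (-1.98 ± 0.23). The 1 riser, Fdft1, squalene synthase (1.31 ± 0.26), had probe sets of differing sign. Glutathione, peroxiredoxin and thioredoxin genes fell in 28 of 59 cases and rose in 14 (median -0.68), with 9, 8 and 9 rises without type B replicate 1 and pachytene replicates 1 and 2. Gsto1 (-3.71 ± 0.27) fell while Gsto2 rose (2.94 ± 0.54 [1.94, 3.93]). Catalase, Cat, fell from 661.6 and 449.9 to 48.0 and 60.5 (-3.01 ± 0.35). Txnrd3, the thioredoxin reductase of testis, rose (1.84 ± 0.28). Of 9 polyamine genes 3 rose and 2 fell, and 1 rose without pachytene replicate 1. Without type B replicate 1 or either pachytene array 1 fell. Oaz1, the general antizyme, fell (-1.18 ± 0.19).

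Phosphatase and kinase lists differed in their counts. Ppp phosphatase subunits rose in 23 and fell in 22 of 68 cases. Ppp1ca, a catalytic subunit of phosphatase 1, went from 1447.0 and 1515.5 to 110.7 and 172.3 (-3.28 ± 0.23, limma adjusted p = 7.63e-05). The regulatory subunits Ppp1r42 (3.39 ± 0.53) and Ppp1r36 (3.43 ± 0.71 [2.06, 4.80]) rose. Tyrosine and dual-specificity phosphatases fell in 20 of 49 cases and rose in 8, with 12 falls and 5 rises without pachytene replicate 2 and 13 falls under the 75th percentile centring. Dusp1 (-3.06 ± 0.28) and Dusp6 (-2.73 ± 0.28), which switch off MAP kinases, fell. Ptpn20 rose from 54.3 and 204.1 to 1912.9 and 1592.4 (3.82 ± 0.47). Of 13 Tssk and Nek kinases 9 rose and 3 fell, but 5 rose without type B replicate 1 and 4 and 5 without the pachytene arrays. Nek4 (2.13 ± 0.20) rose and Nek7 (-1.83 ± 0.18) fell.

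Nuclear transport genes rose in 14 of 42 cases and fell in 8, with 9 rises without pachytene replicate 1. Falls numbered 4 without type B replicate 1, 5 and 2 without pachytene replicates 1 and 2, and 4 under the 75th percentile centring. The pore gene Nup210l rose from 6.3 and 9.5 to 153.0 and 291.8 (3.26 ± 0.30), and Nup210, its relative, fell (-2.42 ± 0.26), its probe sets differing in sign. Rab genes gave 13 rises and 19 falls of 56, with 7 rises without either pachytene array and 20 under the 75th percentile centring. Rab5a of early endosomes (-2.61 ± 0.20) and Rab7 of late endosomes (-1.68 ± 0.19) fell. Sorting nexins and Vps genes gave 16 and 22 of 60, with 10 rises without pachytene replicate 2 and 14 and 13 falls without the pachytene arrays. Snx5 (-2.78 ± 0.25) and Snx6 (-2.04 ± 0.21), partners in retrieval from endosomes, fell. Autophagy genes were even, 9 and 9 of 26, with 5 rises without pachytene replicate 2, and Atg9a, the membrane protein of the pathway, rose (2.43 ± 0.27).

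Genes of the Adam and serine protease families changed in both directions. Of 25 Adam genes 9 rose and 6 fell. Adam18, a sperm surface member, rose from 3.3 and 121.3 to 767.7 and 811.7 (3.97 ± 0.73 [2.55, 5.38]). Adam10, a widely expressed sheddase, fell from 1394.5 and 1063.3 to 200.2 and 256.8 (-2.35 ± 0.22). Of 101 serine protease and serpin genes 52 were tested, and 15 rose and 14 fell, with 9 falls without pachytene replicate 1 and 23 rises under the 75th percentile centring. Acr, acrosin, rose (3.21 ± 0.69 [1.90, 4.52]), and Serpinh1, the collagen chaperone, fell (-4.76 ± 0.32).

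Signalling genes fell more often than the 31.1% of all genes. The shares were 27 of 43 for TGF-beta, BMP and activin signalling (median -1.18), 14 of 23 for Notch and Hedgehog (-1.27), 17 of 35 for Wnt (-0.55) and 20 of 36 for growth factor receptor tyrosine kinases (-0.90). The rises numbered 4, 1, 2 and 3, of which the TGF-beta count was 1 without pachytene replicate 2, the Notch and Hedgehog count 2 without type B replicate 2, and the Wnt count 5 under the 75th percentile centring. Ptch1, the Hedgehog receptor, went from 1335.8 and 1550.4 to 29.1 and 41.2 (-4.84 ± 0.24, limma adjusted p = 4.56e-05). Pdgfra, a receptor of stromal cells, went from 1435.6 and 1259.7 to 17.2 and 10.7 (-5.51 ± 0.27). Both belong to the tested genes with the largest falls. Smad4, the common mediator of TGF-beta and BMP signals, fell (-2.72 ± 0.24), and Id4, known from spermatogonial stem cells, rose from 260.7 and 372.9 to 1460.1 and 1320.6 (2.10 ± 0.28). Lef1, a Wnt effector, rose from 103.4 and 101.4 to 597.4 and 568.7 (2.34 ± 0.20), while the Wnt receptors Fzd2 (-2.20 ± 0.21) and Lrp6 (-2.64 ± 0.26) fell.

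In the retinoic acid pathway 9 of 15 tested genes fell and 3 rose (median -1.01). Cyp26b1, which degrades retinoic acid, went from 572.0 and 753.0 to 16.4 and 12.4 (-4.47 ± 0.21, limma adjusted p = 4.22e-05). Rbp4, a retinol carrier, fell (-2.08 ± 0.21). Aldh1a2, which makes retinoic acid, rose from 345.6 and 602.5 to 1314.4 and 1318.8 (1.49 ± 0.29), and Rdh11, a retinal reductase, by 3.23 ± 0.67 [1.96, 4.5]. Counts of matrix genes leaned to falls. Of 34 tested collagens 20 fell and 3 rose (median -1.69), and of 31 integrins and laminins 19 fell and 3 rose (median -0.88), 1 without pachytene replicate 2. Col3a1 went from 3748.0 and 4057.2 to 95.0 and 82.3 (-5.23 ± 0.21). Cadherins and claudins gave 3 rises and 8 falls of 20, with 3 falls without pachytene replicate 1 and 4 under the 75th percentile centring. Cdh2, N-cadherin, rose (1.5 ± 0.29), and Cdh11 fell (-4.80 ± 0.47). Many genes of these lists are also expressed by stromal, Sertoli and blood cells. The summed stromal signal fell from 13560.9 and 14341.2 to 686.0 and 933.6 over the same arrays, and its part in these falls was not tested.

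Of 23 Bcl2 and caspase genes 4 rose and 11 fell, with 7 rises under the 75th percentile centring. Bcl2l12 (2.12 ± 0.22) and Bak1 (1.24 ± 0.23) rose, and the death-promoting genes Bid (-1.87 ± 0.21) and Bok (-1.68 ± 0.21) fell. In the MHC and interferon list 42 of 69 genes were tested, 14 fell and 4 rose. Falls numbered 9 without type B replicate 1 and 7 without pachytene replicate 1, rises 2 without type B replicate 2 or either pachytene array, and the 75th percentile centring gave 9 of each. Ifitm2 fell from 979.2 and 1019.2 to 58.4 and 137.0 (-3.25 ± 0.43), beside the fall of the macrophage and blood marker sum, whose part was not tested.

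Testis members of gene pairs were set beside their general relatives. In 29 of 35 listed pairs both members were autosomal and tested. The testis members were listed for their known expression in testis, so their direction is not independent evidence. The testis member rose in 20 pairs and fell in 2, whereas the general member rose in 5 and fell in 17. Of all autosomal genes tested, 26.1% rose and 31.1% fell. In 12 pairs the first rose and the second fell, in 3 both rose, and in 27 the testis member had the higher change. Aurkc, the Aurora kinase of meiosis, rose from 39.7 and 156.6 to 477.7 and 582.6 (2.47 ± 0.46, limma adjusted p = 0.0023), while Aurkb read 0.41 ± 0.22 and was called only after rescaling (75th percentile, median or quantile). Clgn, the calnexin of testis, rose by 3.37 ± 0.72 [2.01, 4.74] and Canx read 0.24 ± 0.21. Gtf2a1l, the germ cell TFIIA subunit, rose from 17.9 and 394.5 to 1760.0 and 1976.5 (4.0 ± 0.92 [2.20, 5.79]), and Gtf2a1 read 0.40 ± 0.19, called only with the 75th percentile or median centring. Hspa1a fell from 304.6 and 676.1 to 36.3 and 41.1 (-3.11 ± 0.36). Its testis relative Hspa1l rose only from 2.3 and 15.5 to 37.5 and 28.5 (1.02 ± 0.28 [0.63, 1.41]), lost its call without type B replicate 1 or pachytene replicate 1, and reached 1096.5 and 1150.6 in spermatids.

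Other pairs departed from this pattern. Taf4b, a germ cell TAF, fell from 1239.7 and 907.5 to 192.9 and 175.9 (-2.43 ± 0.23) together with the meiotic kleisin Rec8 described above. For Wbp2nl, a sperm protein, the change was -0.99 ± 0.54 and did not pass, while its relative Wbp2 rose from 330.7 and 256.1 to 1322.8 and 1465.6 (2.20 ± 0.21). Slc25a31, the ADP/ATP carrier of germ cells, was high in both groups, at 2129.3 and 1471.3 against 1318.4 and 1249.3 (-0.46 ± 0.27, called lower only after quantile normalization), and Slc25a4 fell (-2.03 ± 0.31). Calr3 (0.14 ± 0.18) and Calr (-0.00 ± 0.18) gave values near 0. Calr3 stood at 35.5 and 34.1 in pachytene cells and at 408.2 and 441.4 in spermatids.

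**Figure D5:**
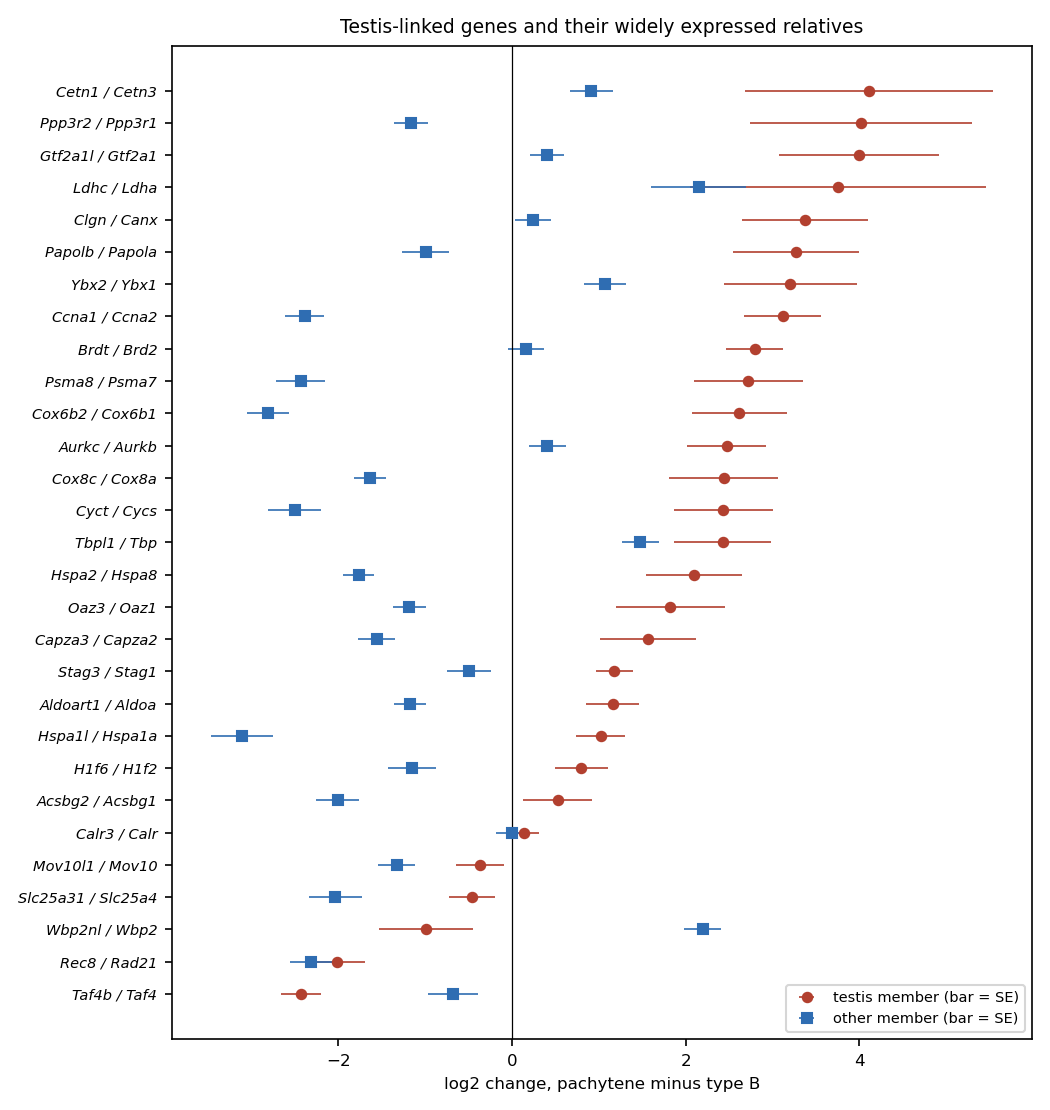
Log2 change, pachytene minus type B, with its standard error, of the testis member and the general member of 29 gene pairs. The testis member lies to the right of its relative in 27 of 29 pairs. The largest changes among testis members have the widest error bars, such as Cetn1 at 4.11 ± 1.43 and Ldhc at 3.75 ± 1.70.

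Among the largest rises, 1700006A11Rik, an unnamed clone, went from 6.0 and 139.2 to 1524.7 and 1315.3 and was back at 233.1 and 161.9 in spermatids (4.62 ± 0.74 [3.21, 6.02], limma adjusted p = 0.0012). Mroh4 rose by 4.70 ± 1.19 [2.35, 7.05], a call lost with trended and robust eBayes. The 5 largest falls were Col1a1 (-6.50 ± 0.24), Mfap4 (-5.67 ± 0.53), Pdgfra (-5.51 ± 0.27), Dlk1 (-5.41 ± 0.24) and Col3a1 (-5.23 ± 0.21). Col1a1, Pdgfra and Col3a1 are genes of stromal cells, and Col1a1 read 1779.9 and 1755.9 in type B. For genes that rose at least 2-fold, the median signal was 73.2 and 73.9 in type A, 72.6 and 162.6 in type B, 515.8 and 527.0 in pachytene cells and 493.8 and 459.8 in spermatids. For those that fell it was 243.6 and 277.7, 266.5 and 227.1, 56 and 58.1, and 64.2 and 64.5. In both sets the spermatid medians lay nearer to the pachytene than to the type B medians, and in the rising set type B replicate 2 lay above replicate 1.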

How the data were processed

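The authors deposited 1 linear intensity per probe set and array, which the submitters' processing notes credit to MAS5, for 8 Mouse 430 2.0 arrays. The MAS5 version was not stated. Of 45101 probe sets, 34945 were annotated to 1 gene, of which 34741 matched a GRCm38.p6 gene table, 932 listed several genes and 9160 none. For each of 18194 genes the probe set of highest mean log2 over the 8 arrays was used. Of these, 14145 were tested and 13579 were autosomal. In 72.4% of called autosomal genes with several probe sets, all had one sign.

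Groups were taken from the sample titles. Values were log2(intensity + 16), which understates the change of dim genes. The 2 groups were contrasted in a limma 3.58.1 fit (R 4.3.3) of all 8 arrays with a mean for each stage, moderated by eBayes and two-sided, with 4 residual and 4.04 prior degrees of freedom. The code was tested on simulated data. The number of arrays limits the precision. The planned settings were other pseudocounts, filters, scalings, probe set rules, samples and each array left out.

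The 78 gene lists, 35 pairs and markers were written with earlier results of these data known. The rule named the 5 markers, the 2 largest called changes in each direction per list, the tested pair members, and the 15 largest changes in each direction among called genes with non-overlapping arrays and probe sets of one sign. Other genes, such as members of a complex or genes with narrower errors, were chosen after their values were seen.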

Additional observations from a re-analysis of the deposited data

How the results depend on the processing

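The counts of rising and falling autosomal genes stayed within 1.5 times of 3550 and 4226 under every setting run. Leaving out each array in turn gave 2506 to 3531 rises and 3334 to 4409 falls. Replicate differences of type B and pachytene cells correlated across genes at r = 0.093. Over the other pairs of stages r ran from -0.18 to 0.17. Such values cannot exclude a pairing by replicate number, and per the design text the preparations were separate. The fit with a replicate block gave 3520 rises and 4240 falls. Of the 369 genes named by the rule, 355 were called, 295 of them kept their call under all planned settings and 60 lost it under at least 1. Averaging all probe sets of a gene turned the sign of Bbip1 to 0.81, Dusp16 to -0.21, Epha1 to -0.0386, Farsa to -0.23, Med1 to -0.0533 and Nsd3 to -0.47, and the cause was not tested. For 24 of 78 lists the median relative to all autosomal genes changed sign under at least 1 setting, among them kinesins, cyclin-dependent kinases, initiation factors and mitochondrial ribosomal proteins, so no direction is read from those medians. Depth is not defined for arrays, and signals near the bottom of the scale give changes that depend on the pseudocount.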

Other observations

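Gene symbols outside the lists were counted after their values were seen, and the counts are descriptions. Of 24 tested Cfap genes, named for cilia and flagella, 23 rose, with a median change of 3.01, against 26.1% of all autosomal genes. Clones without a gene name also rose often. Of 151 tested clone symbols of the 1700 series, RIKEN clones of which many came from testis libraries, 90 rose and 1 fell. In the falling direction, 10 of 12 Tcf genes (median -2.05), 11 of 15 Klf genes, 8 of 10 Mcm genes and 8 of 11 Fkbp genes were called.

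By chromosome, the share of rising genes ran from 22.6% (chromosome 18) to 29.4% (chromosome 8), without a test of the difference. The Tex, Spata, Spag and Tsga list rose further after the pachytene stage in its median level, from 5.96 in type B to 7.26 in pachytene cells and 9.44 in spermatids on the log2 scale.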
